A study of Mus musculus with 40 samples.

Results

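The genes described here are the 10 core circadian clock genes Arntl (also called Bmal1), Clock, Npas2, Per1, Per2, Per3, Cry1, Cry2, Nr1d1 and Nr1d2, measured in mouse liver. They were taken by name, 1 Ensembl gene ID each, from 57186 genes, and all 10 passed the filter on low counts. The 40 libraries of poly(A)-selected liver RNA form 8 groups of 5, set by a genotype labelled KO or WT for NNT (nicotinamide nucleotide transhydrogenase, a mitochondrial NADPH-producing enzyme encoded by Nnt), by sex and by diet. The groups are KO males on a high fat diet (HFD), WT males on HFD, KO males on chow, WT males on chow, KO females on HFD, WT females on HFD, KO females on chow and WT females on chow. Every library carries the strain label C57BL/6NCrl, and livers were collected at 22 to 24 weeks of age. HFD groups had changed from chow to a feed with 45 kcal% fat at 11 to 13 weeks and had eaten it for 11 weeks, so that a diet difference is one between 2 feeds. Collection of all livers fell between 2 and 4.5 h after lights on. The labels give no clock time for a single liver, and no group was sampled around the day, so the values are levels within 1 morning window and not rhythms.

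The clock of each liver cell is a feedback loop of transcription. ARNTL pairs with CLOCK or its relative NPAS2 and switches on genes that hold an E-box, among them the Per, Cry and Nr1d genes; PER and CRY proteins then return to the nucleus and repress the pair. NR1D1 and NR1D2 (REV-ERB alpha and beta) are nuclear receptors that repress Arntl, Npas2 and Cry1 through elements shared with the activating ROR receptors, and the factors DBP, TEF and HLF act on D-boxes in clock genes such as the Per genes. In the liver this loop times metabolic genes, and feeding is one of the signals that sets it.

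The promoter letters at which these inputs meet are shown because the genes below are grouped by role. RefSeq promoters of build GRCm38.p6, which run from 250 bases before to 50 bases after a gene start, matched 9 of the 10 genes. These coordinates are of an earlier build than the mm39 on which the reads were counted. Each line runs 5′ to 3′ on the gene's own strand, and capitals mark the motif. The Per3 line (chr4:151044766-151044885, minus strand) holds a pair of D-boxes whose first bases lie 205 and 158 bases before the start. The Cry1 line (chr10:85185055-85185174, minus strand) and the Per1 line (chr11:69098749-69098868, plus strand) each hold an E-box, 60 and 166 bases before the start. The Arntl line (chr7:113207531-113207560, plus strand) holds a ROR/REV-ERB element that begins at base 31 of the transcript from one of the annotated starts.
Per3: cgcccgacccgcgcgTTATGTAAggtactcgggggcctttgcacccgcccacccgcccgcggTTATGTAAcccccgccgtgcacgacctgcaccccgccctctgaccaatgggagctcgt
Cry1: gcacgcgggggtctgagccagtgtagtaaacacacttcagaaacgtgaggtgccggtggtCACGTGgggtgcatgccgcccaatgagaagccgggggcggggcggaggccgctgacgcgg
Per1: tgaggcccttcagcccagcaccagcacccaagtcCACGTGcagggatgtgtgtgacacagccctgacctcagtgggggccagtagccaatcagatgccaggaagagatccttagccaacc
Arntl: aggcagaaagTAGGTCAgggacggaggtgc

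The motifs were searched as exact letters on both strands. The E-box (CACGTG) was present in at least 1 promoter of 8.09% of the 27025 genes of the table and of 2 of the 9 matched genes, Cry1 and Per1. The D-box (TTANGTAA) was present in 2.72% of genes and in 1 matched gene, Per3, which held it at both places. The ROR/REV-ERB element (TAGGTCA or TGGGTCA) was present in 7.35% of genes and in 1 matched gene, Arntl. The cAMP response element (CRE, TGACGTCA) was present in 2.03% of genes and in 0 of the 9. No match of one motif overlapped a match of another in these 9 genes, and a match describes the letters in this window only.

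Depth, in 1e6 counts per library, ran from 15.97 to 28.16 with a median of 20.43. Xist, the RNA of the inactive X chromosome, was at 0.043 to 2.47 counts per 1e6 counts of its library (CPM) in libraries labelled male and at 1230 to 1770 CPM in those labelled female. Nnt averaged 1.33 ± 0.374 CPM in libraries labelled KO and 1.35 ± 0.357 CPM in libraries labelled WT (SD, n = 20 each), so its counts gave no check of the genotype labels. KO and WT below are the labels' names. Albumin stood at 42059 to 109833 CPM and all 8 hepatocyte markers were detected in every library. The labels do not tie libraries to mice, so the p-values below refer to the spread among these 40 libraries, which may be technical.

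Per kilobase of annotated exon, Nr1d1 and Nr1d2 were the most abundant of the 10. Means over the 40 libraries, in CPM per kilobase, were 21.7 for Nr1d1, 15.8 for Nr1d2 and 6.22 for Clock. Cry1 (4.93), Cry2 (4.92) and Arntl (3.77) came next, followed by Per2 (2.95), Npas2 (1.88), Per1 (1.37) and Per3 (0.765). Between neighbours in this order the ranges over libraries overlapped at every step, for example 3.35 to 39.3 for Nr1d1 and 5.45 to 29.1 for Nr1d2. Exon lengths are those of GENCODE M21 and may differ from the gene models counted. In bulk liver, fewer cells of a type and less RNA per cell cannot be told apart.

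Among the activators, Clock was steady, and Arntl and Npas2 were not. Clock lay between 66.6 and 109 CPM in all 40 libraries, a 1.64-fold range. Arntl ranged 4.8-fold, from 9.62 to 46.2 CPM, and Npas2 ranged 17.9-fold, from 1.1 to 19.8 CPM. Within the Per family, Per3 ranged 27.2-fold (0.825 to 22.4 CPM), Per1 21.1-fold (1.38 to 29.1 CPM) and Per2 4.37-fold (7.08 to 31 CPM). Cry1, the later of the 2 cryptochromes to peak in mouse liver, ranged 4.03-fold and Cry2 only 1.97-fold. Nr1d1 ranged 11.7-fold (10.3 to 121 CPM) and Nr1d2 5.33-fold (29.5 to 157 CPM).

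Much of this range lay inside the groups. The pooled SD of log2 CPM within groups was 1.04 for Per3, 0.95 for Npas2, 0.86 for Per1 and 0.81 for Nr1d1. It was 0.52 for Arntl, 0.49 for Nr1d2, 0.41 for Cry1, 0.37 for Per2, 0.25 for Cry2 and 0.13 for Clock. Of the 15627 genes tested, 0.589% had a larger within-group SD than Per3, 0.953% a larger one than Npas2 and 84.1% a larger one than Clock. The median over all genes tested was 0.24, and 9 of the 10 clock genes lay above it. The SD expected from counting reads alone was 0.03 to 0.12 for the 10 genes, so their counts were deep enough to show this spread. Among genes within 2-fold of the same level, 0.42% had a larger SD than Per3, 0.777% a larger one than Nr1d1 and 51.6% a larger one than Clock.

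The libraries of a group could differ several-fold. In KO males on HFD Nr1d1 was even, with 88.0, 84.6, 86.8, 91.8 and 99.3 CPM. The same gene had 46.8, 19.6, 15.8, 112 and 101 CPM in the 5 KO females on chow and 72.8, 44.5, 32.6, 10.3 and 88.6 CPM in the 5 WT females on chow. Its SD on the log2 scale was thus 0.09 in KO males on HFD and 1.3 and 1.22 in these chow groups, a difference in spread that was not tested. Per3, the least abundant Period gene here, had 4.14, 11.7, 21.5, 22.4 and 4.68 CPM in WT males on chow. Replicates 3 and 4 of that group were the highest in Per3 and, at 10.5 and 11.5 CPM, the lowest in Arntl.

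**Figure D1:**
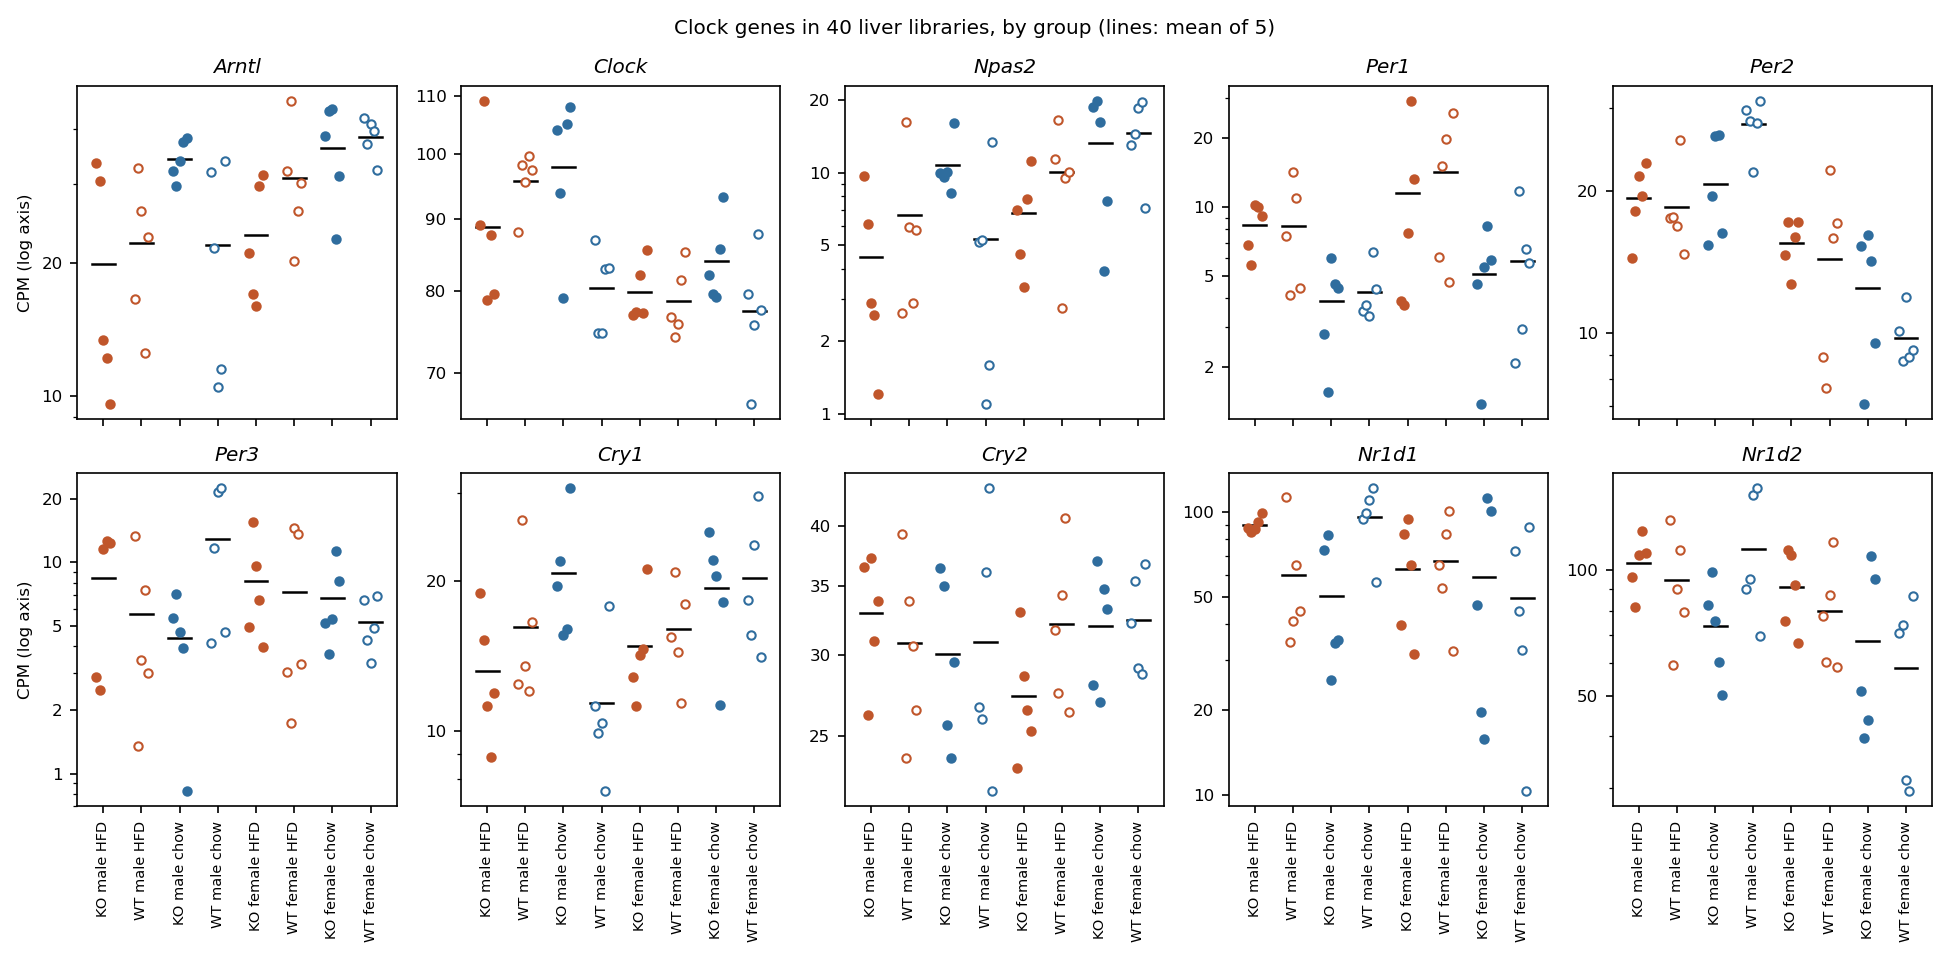
Each point is 1 library; the vertical axis is CPM on a log axis with its own scale in each panel, filled points are KO, open points WT, orange HFD and blue chow, and lines are means of 5. Points of 1 group spread widely for Per3 (0.825 to 22.4 CPM over all libraries) and Npas2 (1.1 to 19.8 CPM) and lie close together for Clock (66.6 to 109 CPM).

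Within groups, 7 of the 10 genes moved together in a fixed pattern of signs. Arntl, Npas2 and Cry1 were high in the same libraries, Per3, Cry2, Nr1d1 and Nr1d2 were high in the same libraries, and the sets of 3 and 4 ran opposite to each other. For each of the 45 pairs, the deviations of log2 CPM from the group mean were correlated over 40 libraries, with a two-sided permutation test that shuffled libraries within groups and Benjamini-Hochberg adjustment over the 45 pairs. In all, 21 pairs had an adjusted p under 0.05, and these were exactly the 21 pairs that the 7 genes can form. None of the 24 pairs that include Clock, Per1 or Per2 did; the nearest, Per2 with Per3, had r = 0.37 and a permutation p of 0.05 (adjusted p 0.1).

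The tightest pair was Arntl and Npas2, the activator and one of its partners. Their deviations had Pearson's r = 0.91 and Spearman's rho = 0.91 (permutation p 1e-05 for each, the smallest the resamples can give, adjusted p 3.7e-05 and 3.2e-05). Within either sex, diet or genotype r was 0.89 to 0.92, and without the 2 libraries farthest from the median of Arntl it was 0.89. In the libraries themselves, KO males on HFD had 33.6, 30.5, 13.4, 12.2 and 9.62 CPM of Arntl and 9.67, 6.12, 2.88, 2.58 and 1.21 CPM of Npas2. The order of the 5 libraries was the same for both genes.

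The paired nuclear receptors Nr1d1 and Nr1d2 followed each other with r = 0.86 and rho = 0.88 (permutation p 1e-05, adjusted p 3.7e-05 and 3.2e-05), and with r = 0.75 in males and 0.91 in females. Arntl ran against Per3 with r = -0.83 and rho = -0.85 (permutation p 1e-05, adjusted p 3.7e-05 and 3.2e-05), and r stayed between -0.78 and -0.86 within each sex, diet and genotype. Arntl ran against Nr1d2 with r = -0.65 and rho = -0.71 (permutation p 1e-05, adjusted p 3.7e-05 and 3.2e-05). Nr1d1 and Nr1d2 are known repressors of Arntl, but a correlation over libraries gives no direction of action. Arntl with Nr1d1 had the smallest absolute Pearson's r of the 21 pairs, though not the smallest rho (r = -0.46, rho = -0.58, permutation p 3e-05, adjusted p 9e-05 for each), and it was -0.49 without the 2 libraries farthest from the median of Arntl.

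The cryptochromes fell on opposite sides. Cry1 ran with Arntl (r = 0.69, rho = 0.70) and against Nr1d2 (r = -0.78, rho = -0.77), each with a permutation p of 1e-05 and adjusted p-values of 3.7e-05 and 3.2e-05. Cry2 ran with Nr1d2 (r = 0.70 and rho = 0.70, permutation p 1e-05, adjusted p 3.7e-05 and 3.2e-05) and with Per3 (r = 0.63, rho = 0.64, permutation p 0.00029 and 0.00021, adjusted p 0.00077 and 0.00056). Cry1 against Cry2 gave r = -0.50 and rho = -0.46 (permutation p 0.0031 and 0.0072, adjusted p 0.0066 and 0.016). That r was -0.05 in KO libraries and -0.83 in WT libraries, and the difference between genotypes was not tested.

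**Figure D2:**
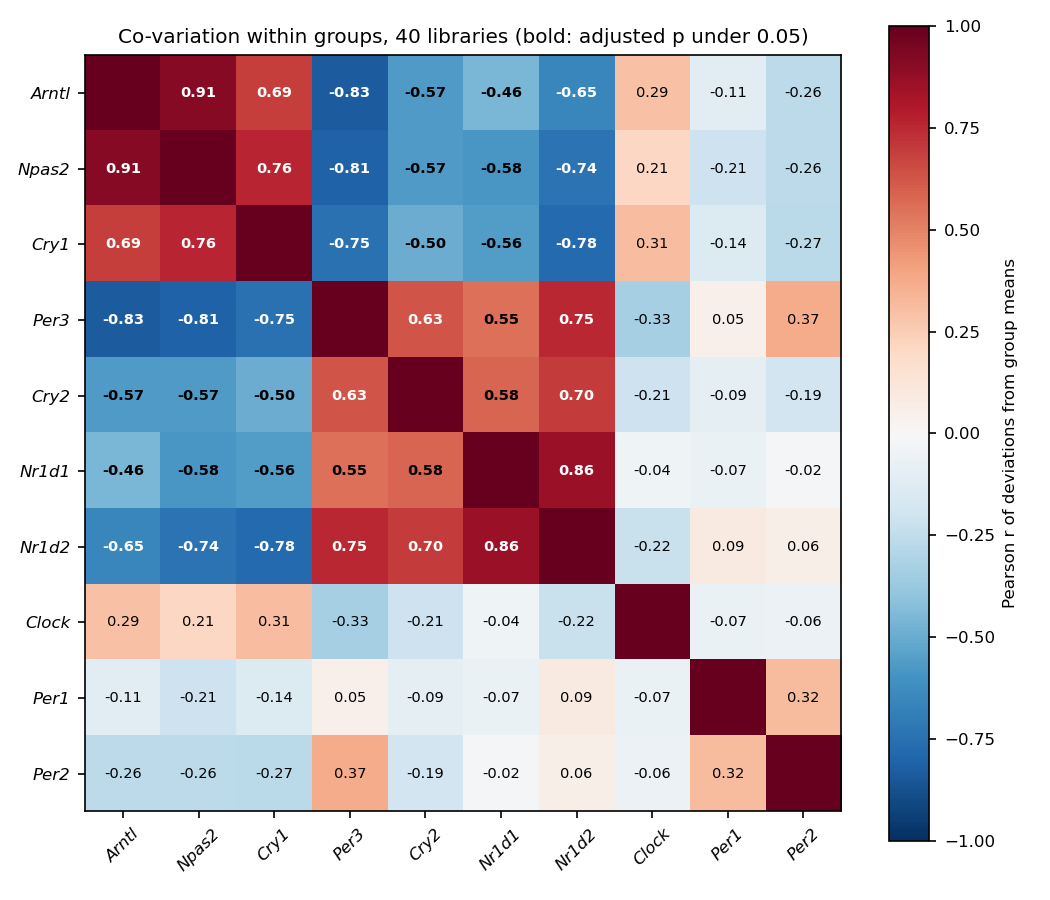
Each cell is Pearson's r between 2 clock genes over 40 libraries, on deviations of log2 CPM from group means; red is positive, blue negative, and bold marks an adjusted p under 0.05. The 7 genes of the upper left block are linked in all 21 of their pairs, from -0.83 to 0.91, and Clock, Per1 and Per2 in none of 24.

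A principal component of the 10 scaled deviations describes the same pattern: the first component took 52.3% of their variance and the second 15.7%. Loadings on the first were 0.40 for Per3 and for Nr1d2, 0.32 for Cry2 and Nr1d1, -0.38 for Arntl and Cry1 and -0.40 for Npas2. Clock (-0.15), Per2 (0.10) and Per1 (0.05) had little weight on it, and Per2 (-0.64) and Per1 (-0.54) led the second. The libraries at its ends were WT male chow replicate 5 (-4.15) and WT male HFD replicate 2 (-4.14) at the Arntl side, and KO female chow replicate 4 (3.88) and WT male chow replicate 4 (3.55) at the Per3 side. WT males on chow thus held libraries near both ends. The scores rest on deviations from group means, so by construction each group has libraries on both sides.

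**Figure D3:**
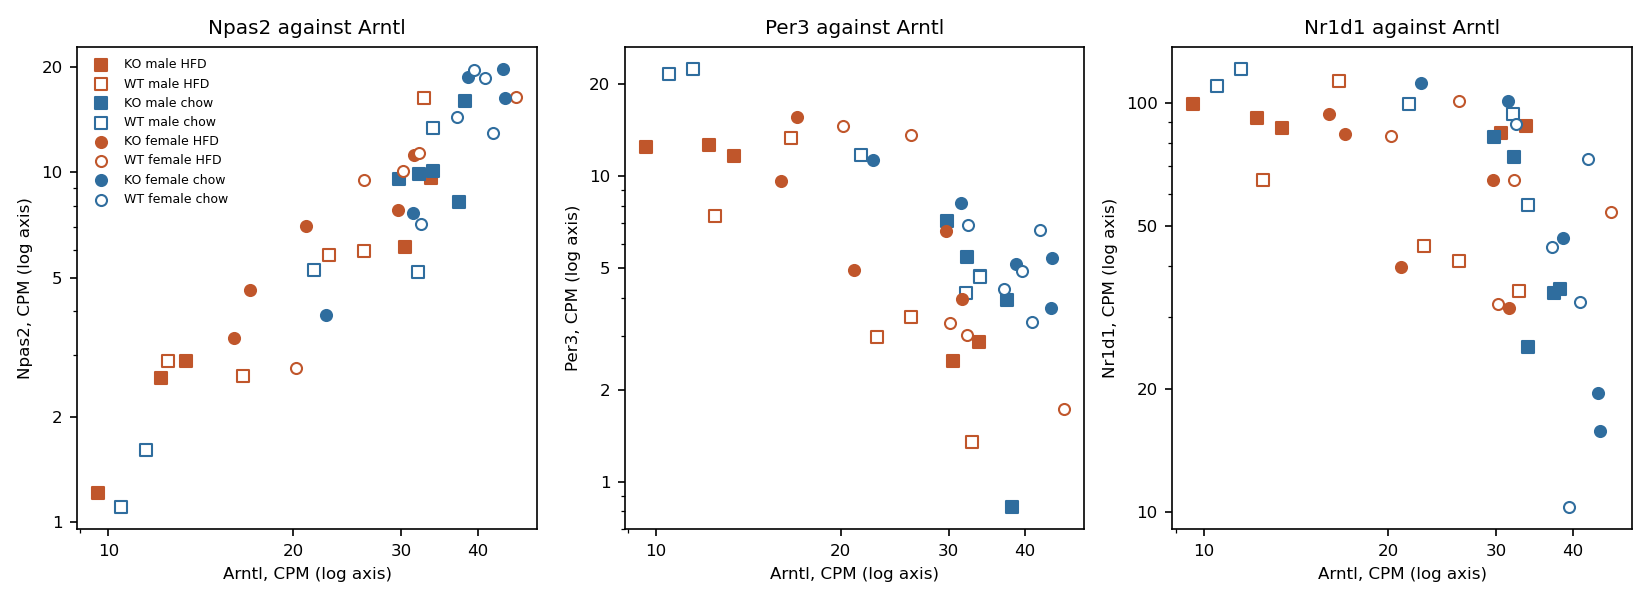
Each point is 1 library, with CPM of Arntl across and of Npas2, Per3 or Nr1d1 up, all on log axes; squares are males, circles females, filled KO, open WT, orange HFD and blue chow. Npas2 tends to be high and Per3 low where Arntl is high; for Nr1d1 this is looser, and in KO males on HFD it lies between 84.6 and 99.3 CPM while Arntl runs from 9.62 to 33.6 CPM. The correlations in the text use deviations from group means and not these levels.

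Genes outside the 10 that varied most like Arntl were looked for among 12554 named genes that averaged 1 CPM or more, by Pearson's r of the same deviations over 40 libraries and as a description without a test. After Npas2, the highest were Chka (r = 0.89), a choline kinase, Grk5 (0.83), a kinase of G protein-coupled receptors, Ppard (0.81), a lipid-sensing nuclear receptor, and Loxl4 (0.81), a lysyl oxidase. The lowest were Tef (-0.83), Per3 (-0.83), Dbp (-0.80), Bhlhe41 (-0.77) and Usp2 (-0.73). For Nr1d1 the highest after Nr1d2 were Dbp (0.80), Tns2 (0.80), a tensin, Tef (0.74) and Slc38a3 (0.71), a glutamine transporter, and among the lowest were Ppard (-0.71), Cgn (-0.69), Mir17hg (-0.68) and Crebzf (-0.67). All points share library and depth.

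Beside this pattern, depth, the mitochondrial share of counts and the summed levels of 10 marker lists of cell types and other tissues were set against each of the 10 genes in the same way, which made 120 relations. The smallest adjusted p among the 120 permutation tests was 0.67. The largest absolute r was that of Per2 with depth, -0.46 (unadjusted permutation p 0.028). Summed endothelial markers had r = -0.33 with each of Arntl, Npas2 and Cry1. Their r was 0.37 with Per3, 0.41 with Cry2, 0.21 with Nr1d1 and 0.29 with Nr1d2, the same signs as the pattern. The part of cell types in the pattern was not tested. Reads that overlap an opposite-strand gene cannot be assigned without a known strand setting. Nr1d1 shares 263 exonic bases (8.55% of its exons) with Thra, whose median count was 330, and the deviations of these 2 genes had r = 0.43 over 40 libraries. Cry2 shares 295 bases (4.67%) with D930015M05Rik (median count 21, r = 0.33), and Arntl shares 33 bases (0.439%) with Gm45355, whose median count was 0. The part of these overlaps in the correlations was not tested.

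The first comparison set HFD against chow in each sex and genotype. Whether the groups differed in time of collection within the morning window is not known. Its part in the differences by diet, genotype and sex below was not tested. Per1, a Period gene that is also induced acutely by glucocorticoid and feeding signals, was the clock gene with the largest diet difference averaged over the 4 strata; within KO males Npas2 (log2 -1.27, against 1.11 for Per1) and within WT males Per3 (-1.21, against 0.95 for Per1) differed by more, without being called. In KO males on HFD it had 6.81, 5.61, 10.2, 10 and 9.16 CPM, against 2.78, 1.56, 5.98, 4.61 and 4.42 CPM in KO males on chow. In WT males on HFD it had 7.51, 4.11, 14.3, 11.0 and 4.43 CPM, against 3.51, 3.72, 3.35, 6.34 and 4.40 CPM in WT males on chow. In KO males 4 of 5 HFD libraries, and in WT males 3 of 5, lay above every chow library of their genotype, and the groups overlapped in both.

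In females the HFD values of Per1 reached higher and spread more. KO females on HFD had 3.88, 3.73, 7.69, 29.1 and 13.3 CPM, against 4.62, 1.38, 5.46, 8.28 and 5.86 CPM in KO females on chow. WT females on HFD had 6.05, 15.2, 19.8, 4.69 and 25.7 CPM, against 2.09, 11.8, 2.94, 6.59 and 5.71 CPM in WT females on chow. The groups overlapped, and 2 of the KO female HFD libraries lay below the mean of their chow group, 5.12 CPM.

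Averaged over the 4 strata of sex and genotype, Per1 was 2.19-fold higher on HFD (log2 difference 1.13 ± 0.25 SE, 95% interval 0.62 to 1.64; edgeR quasi-likelihood test, adjusted p 0.00079). The log2 difference was 1.11 ± 0.52 in KO males, 0.95 ± 0.51 in WT males, 1.16 ± 0.49 in KO females and 1.29 ± 0.49 in WT females, and none of these alone passed the adjusted threshold of 0.05 (edgeR adjusted p 0.174 to 0.244). Averaged over genotypes it was 1.03 ± 0.36 in males (edgeR adjusted p 0.0449) and 1.23 ± 0.35 in females (edgeR adjusted p 0.0165). The diet differences of Per1 in males and in females did not differ beyond error (difference of log2 differences -0.20, 95% interval -1.21 to 0.82). The call held without each of the 40 libraries in turn, with log2 differences of 0.96 to 1.24.

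Arntl was lower on HFD over the 4 strata, to 0.743 of its chow level (log2 difference -0.43 ± 0.15, 95% interval -0.74 to -0.12; edgeR adjusted p 0.0338). KO males on HFD had 33.6, 30.5, 13.4, 12.2 and 9.62 CPM, against 32.1, 29.8, 33.8, 37.3 and 38.1 CPM in KO males on chow. KO females on HFD had 21, 17, 16, 29.7 and 31.5 CPM, against 38.6, 44.0, 44.3, 22.6 and 31.4 CPM in KO females on chow. In both KO strata 3 HFD libraries lay below every chow library and the other 2 lay within the chow range.

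WT livers showed less of a difference. WT males on HFD had 16.6, 32.7, 26.1, 12.5 and 22.9 CPM of Arntl, against 32, 21.6, 10.5, 11.5 and 33.8 CPM in WT males on chow, a log2 difference of 0.03 ± 0.31. WT females on HFD had 32.1, 46.2, 20.2, 26.1 and 30.2 CPM, against 42.3, 37, 41.1, 39.5 and 32.3 CPM in WT females on chow, a log2 difference of -0.31 ± 0.30. The KO log2 differences were -0.78 ± 0.31 in males and -0.65 ± 0.30 in females. None of the 4 passed alone, and the test of KO against WT diet differences gave -0.58 (95% interval -1.19 to 0.04, edgeR adjusted p 0.731).

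The Arntl call over the 4 strata lies close to the threshold. With any 1 of the 40 libraries left out the log2 difference was -0.50 to -0.37. The call was lost on leaving out any 1 of 11 libraries, namely KO female chow replicate 3, WT female HFD replicate 3, KO female HFD replicates 2 and 3, WT male chow replicates 1 and 5, WT male HFD replicates 1 and 4, and KO male HFD replicates 3, 4 and 5, with edgeR adjusted p-values of 0.0518 to 0.0662. Without KO male HFD replicate 1, Arntl was called in KO males (log2 difference -1.06, edgeR adjusted p 0.0433). Npas2, which tracked Arntl within groups, was at -0.60 ± 0.26 over the strata (edgeR adjusted p 0.0984). It was called without WT male HFD replicate 2 (-0.75, edgeR adjusted p 0.0267) or without KO male HFD replicate 1 (-0.71, edgeR adjusted p 0.0428).

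Per1 and Arntl were thus the 2 of 10 clock genes called for diet over the 4 strata, beside 24.7% of all 15627 genes tested, a share close to theirs. Median log2 differences were 0.03 over the 10 genes and 0 over all genes. The remaining 8 had log2 differences of -0.60 (Npas2) to 0.28 (Nr1d2), with intervals that included 0 except for Npas2 (-1.13 to -0.06). The intervals were narrow for Clock (-0.06 to 0.10) and Cry2 (-0.18 to 0.12) and wide for Per3 (-0.47 to 0.70) and Nr1d1 (-0.29 to 0.62).

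Within single strata edgeR called 1 clock gene, Clock in WT males; DESeq2 also called Per2 there (log2 -0.59, adjusted p 0.0436), which edgeR did not (-0.58, adjusted p 0.0654). WT males on HFD had 88.1, 98.2, 95.5, 99.7 and 97.4 CPM of Clock, against 86.9, 74.8, 74.7, 82.9 and 83.1 CPM in WT males on chow, and every HFD library lay above every chow library. The difference was 1.19-fold (log2 0.25 ± 0.08, edgeR adjusted p 0.0326), in a comparison that called 11.6% of all genes. It was lost without WT male chow replicate 2 or 3 or without WT male HFD replicate 2, 3, 4 or 5 (edgeR adjusted p 0.0621 to 0.103), and without the filter on low counts (0.0864). KO males on HFD had 89.1, 109, 78.9, 87.7 and 79.6 CPM, against 104, 93.8, 79.1, 105 and 108 CPM in KO males on chow, a log2 difference of -0.14 ± 0.08. The diet difference of Clock in KO minus that in WT, averaged over sexes, was -0.24 ± 0.08, with an unadjusted p of 0.00418 and an edgeR adjusted p of 0.488.

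In KO males edgeR called 0 of the 10 genes, beside 4.45% of all genes, and DESeq2 called 0. At an unadjusted p under 0.05 these were 4 of 10, beside 17.7% of all genes. They were Per1, Arntl (-0.78), Npas2 (-1.27 ± 0.54) and Cry1 (-0.65 ± 0.25). Arntl, Npas2 and Cry1 were correlated with each other within groups, so the 4 of 10 do not count independent genes. In KO females and in WT females edgeR and DESeq2 called 0 of 10, beside 4.94% and 2.80% of all genes in the edgeR fit. There 2 of 10 had an unadjusted p under 0.05 in each genotype, beside 16.5% and 15.1% of all genes.

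**Figure D4:**
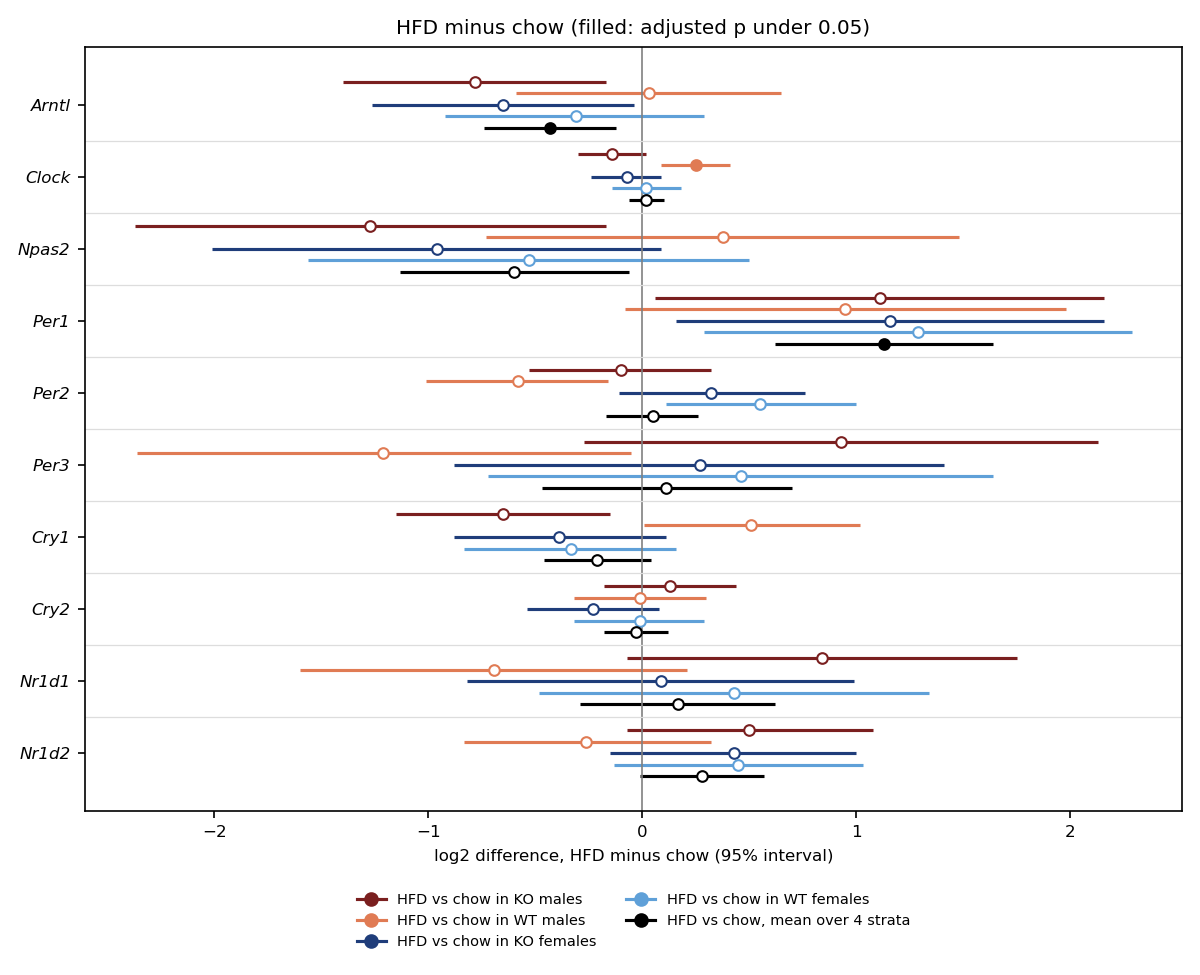
Points are log2 differences, HFD minus chow, for each clock gene in KO males, WT males, KO females and WT females and as the mean over the 4 strata; bars are 95% intervals and filled points have an adjusted p under 0.05. The filled points are Per1 (1.13) and Arntl (-0.43) over the strata and Clock in WT males (0.25).

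Other genes of the clock and of its inputs were counted in the same fits. Of 30 other clock regulators 29 were tested (Rorb was not), and over the 4 strata 4 were called higher and 3 lower on HFD, beside 24.7% of all genes called. Among those with the smallest edgeR adjusted p were Ddb1 (log2 0.15, adjusted p 0.000116), a ubiquitin ligase adaptor, and Nampt (-0.17, 0.0045), the rate-limiting enzyme of NAD salvage. Nono (-0.08, 0.015), Gsk3b (0.13, 0.0153) and Ncor1 (0.10, 0.0294), the corepressor recruited by REV-ERB receptors, were also among them. In WT males Ncor1 (0.29, edgeR adjusted p 0.00498) and Ddb1 (0.21, 0.018) were called higher and Nono (-0.20, 0.00556) lower, and in KO males and KO females none of the 29 (beside 4.45% and 4.94% of all genes; DESeq2 calls were not counted for this list). At an unadjusted p under 0.05 there were 5 of 29 in KO males and 2 of 29 in KO females, beside 17.7% and 16.5% of all genes, so that neither count stands above the background. Of the 3 D-box factors, Hlf was called higher over the strata (log2 0.29 ± 0.06, edgeR adjusted p 0.000468) and in KO males (0.51 ± 0.13, 0.0118). Dbp (0.77 ± 0.47) and Tef (0.22 ± 0.16) were not called over the strata.

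Because Per1 also answers glucocorticoid and feeding signals, lists of such genes were counted beside it. Of 10 glucocorticoid-responsive and immediate early genes 1 was called over the strata, Sgk1, which was higher on HFD, and of 11 fasting and feeding genes 1 was called higher and 3 were called lower (Tat, Fasn and Pnpla3); these names were chosen after their values were seen. Markers of liver cell types also differed with diet over the strata. Of 6 endothelial markers 4 were called higher on HFD and 0 lower, of 7 stellate cell and fibroblast markers 4 higher and 0 lower, of 7 Kupffer cell and macrophage markers 1 higher and 0 lower, and of 8 hepatocyte markers 1 higher and 4 lower, beside 24.7% of all genes called. The direction of the Kupffer cell and macrophage markers, called or not, varied with genotype. On HFD 7 of 7 were higher in WT females and in WT males, against 1 of 7 in KO females and 0 of 7 in KO males. For the KO minus WT diet difference edgeR called 0 of 7, and 6 had an unadjusted p under 0.05, beside 6.99% of all genes. In WT males the summed level of the endothelial markers was 128 to 174 CPM on HFD and 103 to 174 CPM on chow, and that of the stellate cell and fibroblast markers 307 to 398 CPM on HFD and 245 to 342 CPM on chow. The summed level of the 8 hepatocyte markers was 76867 to 102699 CPM in KO females on HFD and 103094 to 112708 CPM in KO females on chow. Elsewhere the ranges of the 2 diets overlapped, with HFD given first. They were 90437 to 137991 and 97763 to 109732 CPM in WT females and 66351 to 93646 and 80435 to 94128 CPM in KO males. In WT males they were 79796 to 89104 and 80823 to 99111 CPM. That of 5 adipocyte markers was 2.21 to 4.35 CPM in WT males on HFD and 0.228 to 1.14 CPM in WT males on chow, with Adipoq at 0 in 16 libraries and Lep at 0 in 30 of 40. The summed level of 5 skeletal muscle markers reached 27.6 CPM in 1 KO male on HFD. The part of these markers in the diet differences was not tested.

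The second comparison, KO against WT, found no clock gene past the threshold. edgeR and DESeq2 called 0 of 10 in males on HFD, males on chow, females on HFD and females on chow and over the 4 strata, and edgeR called 0.00640% of all genes in females on HFD and 0 of 15627 in each of the others. Over the strata the log2 differences ran from -0.15 ± 0.25 for Per1 to 0.10 ± 0.12 for Cry1, and 0 of 10 had an unadjusted p under 0.05, beside 6.68% of all genes. The interval for Arntl was -0.31 to 0.30 and that for Per3 -0.69 to 0.48, so differences within these intervals are not excluded. In males on HFD, females on HFD and females on chow 0 of 10 had an unadjusted p under 0.05, beside 6.96%, 6.34% and 4.47% of all genes.

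Males on chow stood apart at the unadjusted level, where 6 of 10 clock genes had p under 0.05, beside 8.47% of all genes. Cry1 had 19.5, 21.9, 15.6, 16 and 30.6 CPM in KO males on chow, against 11.2, 9.92, 10.4, 7.58 and 17.8 CPM in WT males on chow, and WT replicate 5 was the only WT library within the KO range. Its log2 difference was 0.87 ± 0.25 (unadjusted p 0.00139, edgeR adjusted p 0.352). Per3 had 5.43, 7.12, 4.70, 3.92 and 0.825 CPM in KO males on chow, against 4.14, 11.7, 21.5, 22.4 and 4.68 CPM in WT males on chow (log2 difference -1.56 ± 0.59, edgeR adjusted p 0.452). The other 4 were Clock (0.28 ± 0.08), Arntl (0.65 ± 0.31), Nr1d2 (-0.62 ± 0.28) and Nr1d1 (-0.94 ± 0.45), with edgeR adjusted p-values of 0.352 to 0.584. Arntl and Cry1 were at the higher and Per3, Nr1d1 and Nr1d2 at the lower side, which is also how these genes varied within groups. Arntl, Cry1, Per3, Nr1d1 and Nr1d2 were correlated with one another within groups, so the 6 of 10 do not count independent genes. Clock was not correlated with them (adjusted permutation p 0.13 or more).

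The 5 WT male chow libraries also serve as the chow side of the WT male diet comparison, so the values of these 2 comparisons are not independent. Side by side, the log2 differences of KO against WT males on chow and of HFD against chow in WT males were 0.28 and 0.25 for Clock, 0.87 and 0.51 for Cry1, -1.56 and -1.21 for Per3, -0.94 and -0.69 for Nr1d1 and -0.42 and -0.58 for Per2. They were 0.65 and 0.03 for Arntl, 1.05 and 0.38 for Npas2, -0.62 and -0.26 for Nr1d2, -0.04 and -0.01 for Cry2, and of opposite sign for Per1, at -0.15 and 0.95. KO male chow replicate 3 had the lowest mitochondrial share of counts of all libraries (4.02%), and no count of called clock genes changed without it. Of the other clock regulators 0 of 29 and of the D-box factors 0 of 3 were called by edgeR in males on chow (unadjusted p under 0.05 in 4 regulators and in 2 D-box factors, of which Dbp was at -2.57 ± 0.97).

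The third comparison, males against females, called the most clock genes. Over the 4 strata of genotype and diet 5 of 10 were called, beside 50.3% of all genes tested (25.1% higher and 25.2% lower in males), so that the count is at the background share. Per2 (log2 difference 0.73 ± 0.11, edgeR adjusted p 4.33e-07), Nr1d2 (0.37 ± 0.14, 0.0267) and Clock (0.18 ± 0.04, 0.000283) were higher in males. Npas2 (-0.74 ± 0.26, edgeR adjusted p 0.0186) and Arntl (-0.40 ± 0.15, 0.0271) were lower in males. Leaving out WT female HFD replicate 2 ended the Arntl call (-0.35, edgeR adjusted p 0.0511).

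Per2, the Period gene with the steadiest level within groups, had the smallest p of the 10 for sex, and its difference was widest on chow. KO males on chow had 15.4, 19.5, 26.2, 26.3 and 16.3 CPM, against 15.3, 7.08, 16.1, 14.2 and 9.51 CPM in KO females on chow. WT males on chow had 29.7, 28.1, 21.9, 27.8 and 31 CPM, against 10.1, 8.72, 11.9, 8.88 and 9.21 CPM in WT females on chow. The WT groups were far apart, and in KO only the lowest male library lay within the female range.

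On HFD the sexes were closer. KO males on HFD had 14.4, 18.1, 21.5, 19.5 and 22.9 CPM of Per2, against 14.6, 17.2, 12.7, 16 and 17.2 CPM in KO females on HFD. WT males on HFD had 17.5, 17.6, 16.9, 25.7 and 14.7 CPM, against 8.92, 7.66, 22.2, 15.9 and 17.1 CPM in WT females on HFD. The groups overlapped in both genotypes.

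The log2 difference of Per2, male minus female, was 0.31 ± 0.21 in KO on HFD (edgeR adjusted p 0.331) and 0.37 ± 0.21 in WT on HFD (0.225). It was 0.74 ± 0.22 in KO on chow (edgeR adjusted p 0.0106) and 1.51 ± 0.22 in WT on chow (1.89e-06). The same libraries give the diet difference, which averaged over genotypes was -0.34 ± 0.15 in males and 0.44 ± 0.15 in females (edgeR adjusted p 0.111 and 0.0603). The test of the male against the female diet difference gave -0.78 ± 0.21 (95% interval -1.22 to -0.35, unadjusted p 0.000803), but after adjustment over all genes edgeR's p was 0.0922 and DESeq2's 0.0262. edgeR called 0.544% of all genes there and 0 of 10 clock genes, of which 1, Per2, had an unadjusted p under 0.05, beside 10.4% of all genes. Per2 passed in edgeR without WT female HFD replicate 1 (adjusted p 0.0459), WT female HFD replicate 2 (0.0344) or WT male HFD replicate 4 (0.0479).

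Clock was higher in males in a narrow range. Over the 10 males on HFD it ran from 78.9 to 109 CPM with a median of 92.3, against 74.2 to 85.6 CPM with a median of 77.2 in the 10 females on HFD. Over the 10 males on chow it ran from 74.7 to 108 CPM with a median of 85.0, against 66.6 to 93.3 CPM with a median of 79.7 in the 10 females on chow. The log2 difference was 0.15 ± 0.08 in KO on HFD, 0.28 ± 0.08 in WT on HFD, 0.22 ± 0.08 in KO on chow and 0.05 ± 0.08 in WT on chow, called in WT on HFD and in KO on chow (edgeR adjusted p 0.00836 and 0.0425). Averaged over genotypes, the sex difference of Clock on HFD minus that on chow was 0.08 ± 0.08 (edgeR adjusted p 0.793). Averaged over diets, that in KO minus that in WT was 0.02 ± 0.08 (edgeR adjusted p 0.985). Whether diet and genotype jointly alter the sex difference was not tested.

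Npas2 ran from 1.21 to 16.3 CPM with a median of 4.34 in males on HFD, against 2.76 to 16.5 CPM with a median of 8.66 in females on HFD. On chow it ran from 1.10 to 16 CPM with a median of 8.91 in males, against 3.91 to 19.8 CPM with a median of 15.4 in females. Nr1d2 had medians of 103 CPM in males and 82.3 CPM in females on HFD, and 86.3 CPM in males and 60.9 CPM in females on chow. All of these ranges overlapped between the sexes. In WT on chow, where Per2 differed most, Npas2 (-1.48), Cry1 (-0.83), Arntl (-0.82) and Nr1d2 (0.95) were also called, which made 5 of 10, beside 23.6% of all genes. In KO on chow 2 of 10 were called (23.3% of all genes), in WT on HFD 1 of 10 (21.7%) and in KO on HFD 0 of 10 by edgeR (19.5%, with an unadjusted p of 0.0587 or more; DESeq2 was not run on this stratum). The count in WT on chow rests in part on the same WT male chow libraries as above. Npas2, Cry1, Arntl and Nr1d2 were correlated with each other within groups, so it does not count independent genes.

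**Figure D5:**
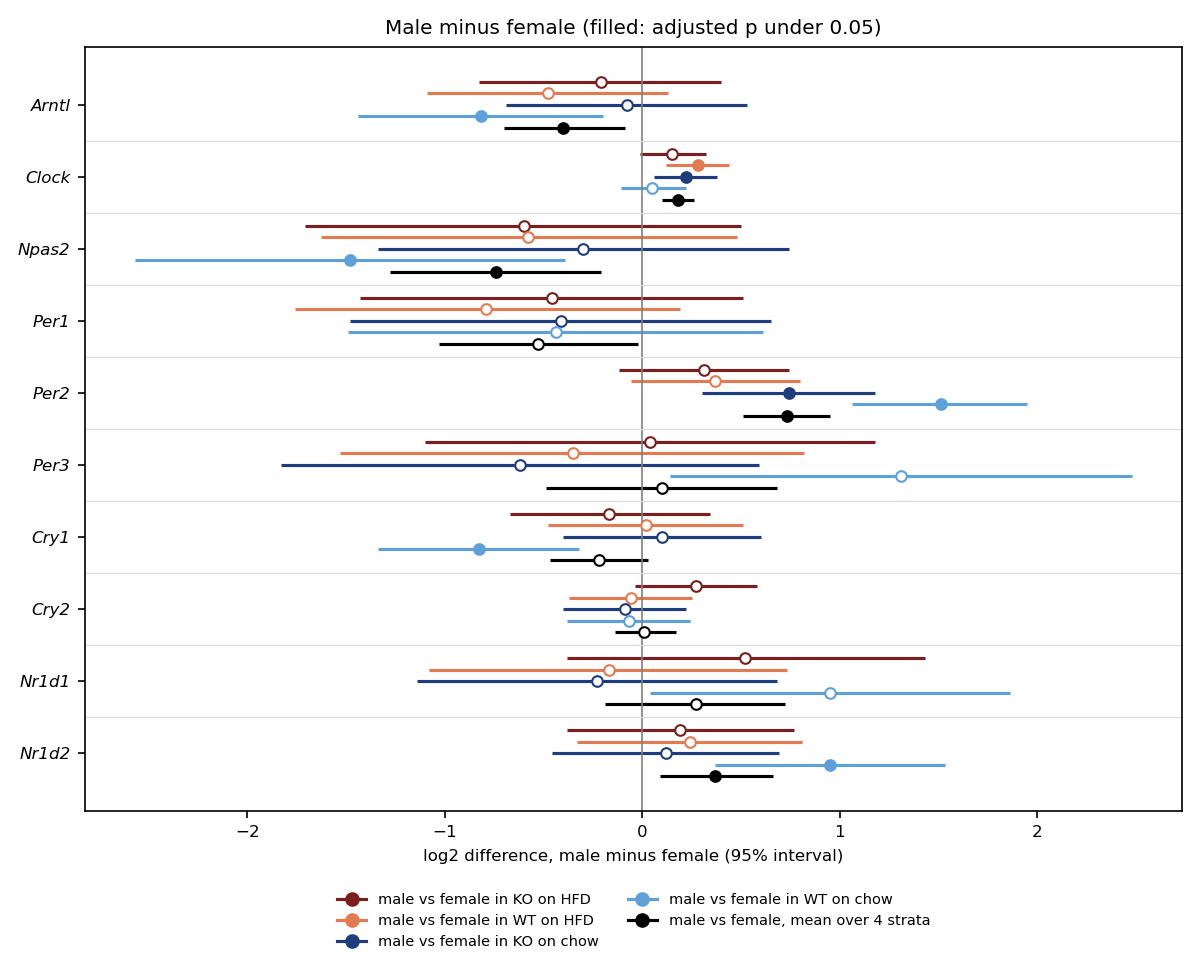
Points are log2 differences, male minus female, for each clock gene in KO and WT on HFD, in KO and WT on chow and as the mean over the 4 strata; bars are 95% intervals and filled points have an adjusted p under 0.05. Per2 is at 0.31 in KO on HFD and at 1.51 in WT on chow.

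Per1 was at -0.53 ± 0.25 in males against females over the strata (edgeR adjusted p 0.079), Cry1 at -0.22 ± 0.12, Nr1d1 at 0.27 ± 0.22, Per3 at 0.10 ± 0.29 and Cry2 at 0.01 ± 0.08, none of them called. The interval for Cry2, -0.14 to 0.17, was the narrowest of these. Of the 29 other clock regulators 7 were called higher and 5 lower in males, beside 50.3% of all genes called, so that the count does not stand above the background. The 6 with the smallest edgeR adjusted p were Fbxl21 (log2 -0.78, adjusted p 1.53e-13), a ubiquitin ligase subunit that acts on cryptochromes, Bhlhe41 (2.90, 5.01e-09), a repressor at E-boxes, Ddb1 (0.20, 3.82e-07), Nampt (-0.31, 4.45e-07), Timeless (-0.43, 4.77e-06) and Nono (-0.14, 1.44e-05). Of the D-box factors Dbp was called, 2.24-fold higher in males (log2 1.16 ± 0.47, edgeR adjusted p 0.0398).

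Marker lists of other liver cells also differed between the sexes. The summed level of 7 Kupffer cell and macrophage markers was 121 to 249 CPM in males and 212 to 454 CPM in females, that of 6 endothelial markers 103 to 174 CPM in males and 145 to 224 CPM in females, and that of 7 stellate cell and fibroblast markers 245 to 398 CPM in males and 334 to 487 CPM in females. All markers of these 3 lists were detected in every library. Their part in the sex differences of the clock genes was not tested. The KO-WT difference in males minus that in females, averaged over diets, gave 0 calls among the 10 by edgeR and DESeq2, with 0 of 10 at an unadjusted p under 0.05, beside 7.97% of all genes at that unadjusted level. edgeR called 0 of all 15627 genes there. The diet difference in KO minus that in WT likewise gave 0 calls among the 10 by edgeR and DESeq2 and 0 over all genes by edgeR, with 2 of 10 (Clock and Cry1) at an unadjusted p under 0.05, beside 6.99% of all genes.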

How the data were processed

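Liver poly(A) RNA was sequenced in 40 libraries. Each library's table, as deposited by the authors, holds raw counts of reads for every gene. Per the submitters' processing notes, STAR 2.7.10b, featureCounts 2.0.6 and build mm39 were used; which annotation release and which strand setting were applied is not given in the sources used here. Libraries were grouped by their titles, since the treatment label disagrees with the title for 20 of 40 and would make every WT library chow and every KO library HFD.

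The counts were fitted with edgeR 4.0.16 in R 4.3.3 (filterByExpr by group, TMM scaling, 8 group means over 40 libraries, quasi-likelihood F-test). Benjamini-Hochberg adjustment ran over the 15627 genes tested in each contrast, with calls made at an adjusted p under 0.05. Errors of log2 differences are SE and intervals are at the 95% level. CPM use TMM-scaled library sizes, except those of Nnt and Xist, which use library totals. Correlations used log2 CPM with a prior count of 2 and 100000 permutations (Python 3.11.15, numpy 2.4.6, scipy 1.17.1). Both procedures were tested on simulated data.

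Alternatives were RLE size factors, other filters on low counts, DESeq2 1.42.0, only the groups compared, a prior count of 0.5, unscaled totals, Spearman's rho, a block on replicate number, and leaving out each library. Sex contrasts in each stratum and diet contrasts in each sex were added after seeing the data. Named genes were all 10 clock genes, called genes of the regulator and D-box factor lists (the 6 of smallest adjusted p where more were called), the 5 genes most and least like Arntl and Nr1d1, and overlapping genes; a few genes that this rule names are not reported here. Members and lists were chosen with earlier results of these data known. No library pair was identical; the closest of 80 replicate pairs differed by 7.98 in chi-square per degree of freedom. Gene symbols, exon lengths and overlaps came from GENCODE M21 on GRCm38, an earlier build than the one counted on.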

Additional observations from a re-analysis of the deposited data

Results flagged for a closer look

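In 3 of 80 sets of 5 replicates (10 genes in 8 groups), 1 library stood far from the other 4 by the ratio of its gap to the range of the set, as chance alone does in about 1 in 20 sets. Npas2 was at 16 CPM in KO male chow replicate 5, where the other 4 libraries of the group ran from 8.23 to 10.1 CPM. Npas2 was also at 16.3 CPM in WT male HFD replicate 2, where the other 4 ran from 2.62 to 5.94 CPM. Both libraries lay at the Arntl side of the first component, with scores of -2.75 and -4.14. Npas2 itself enters that component (loading -0.4), so these scores are not separate from its high values. Per2 was at 25.7 CPM in WT male HFD replicate 4, where the other 4 ran from 14.7 to 17.6 CPM.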

How the results depend on the processing

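No called difference changed direction under any alternative tried, and RLE size factors and a filter set at 1 CPM in 5 or more libraries changed no count of called clock genes. For HFD in WT males the count of 1 became 0 without the low-count filter and 2 with DESeq2, with only the groups compared or with the replicate block (Per2 added, adjusted p 0.0436, 0.026 and 0.0457), and 0 to 2 with single libraries left out. For the male minus female diet difference DESeq2 called 1, against 0 in edgeR, and single libraries left out gave 0 to 1. With 1 library left out, counts were 0 to 1 for HFD in KO males, 1 to 3 for HFD over the strata and 4 to 6 for males against females. Averaged over genotypes, HFD called 1 clock gene in males and 1 in females; males against females called 0 in KO on HFD, 1 in WT on HFD, 2 in KO on chow and 5 in WT on chow. Where not stated, the cause was not tested. The count of correlated pairs was 21 in every alternative and each library left out, except 22 with the replicate block. Replicate numbers do not pair the libraries: over 140 same-number pairs the median correlation was -0.0119, 25 exceeded 0.1, and 7 of 40 libraries correlated best with their own number. No scaling moved the median of all genes by more than 0.03 (log2). The depth left Per3 with as few as 14 reads in 1 library.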
